A study of Mus musculus with 6 samples.

Results

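The 10 genes described here are the bone morphogenetic protein (BMP) receptors Bmpr1a, Bmpr1b and Bmpr2, the signal transducers Smad1, Smad5 and Smad4, and the target genes Id1, Id2, Id3 and Id4. They were taken by symbol from a read count table of 24421 genes, and all 10 were present. Cells were primary neural stem cells from mouse embryos at E13.5 (embryonic day), grown as neurospheres, which are floating clusters of dividing progenitors. One group was WT and the other was Pml knockout (Pml-/-), with 3 libraries each. Pml encodes the promyelocytic leukemia protein, which assembles nuclear bodies. Both groups shared the same culture conditions: 20 ng/ml epidermal growth factor, 20 ng/ml fibroblast growth factor 2 and 20% oxygen, with lysis on day 4 after dissociation. The labels give neither the mouse strain nor the deleted part of Pml. Nothing in them says that replicates were separate cultures or embryos, so p-values reflect only how far these libraries differ, which may be technical.

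BMP ligands are secreted dimers that bring together type I and type II serine/threonine kinase receptors. The type II receptor phosphorylates the type I receptor, which then phosphorylates Smad1 and Smad5. These join Smad4, enter the nucleus and switch on genes of which the Id genes are the best known. Id proteins carry a helix-loop-helix domain without a DNA-binding region. They bind E proteins and so keep proneural factors from acting. In the embryonic brain, BMP signals hold back neurogenesis, favour astrocyte formation and pattern the dorsal midline.

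Promoter sequence was available from RefSeq (GRCm38.p6) for 8 of the 10 genes. The 250 bases before each RefSeq start were searched on both strands for GGCGCC and GGAGCC, which Smad1 and Smad5 can bind, and for the palindrome GTCTAGAC. The stretches below belong to Id2 and Id4, the 2 members with the same order of levels over the 6 libraries. Capitals mark GGCGCC and GGAGCC, and both stretches run 5′ to 3′ on the strand of the gene. Of the Id2 window, 161 bases that lie in an annotated exon are left out, and the 89 bases shown lie in an intron of its longest gene model.
Id2 (chr12:25096254-25096342, minus strand): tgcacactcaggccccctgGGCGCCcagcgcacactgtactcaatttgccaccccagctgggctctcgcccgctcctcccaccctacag
Id4 (chr13:48260866-48261115, plus strand): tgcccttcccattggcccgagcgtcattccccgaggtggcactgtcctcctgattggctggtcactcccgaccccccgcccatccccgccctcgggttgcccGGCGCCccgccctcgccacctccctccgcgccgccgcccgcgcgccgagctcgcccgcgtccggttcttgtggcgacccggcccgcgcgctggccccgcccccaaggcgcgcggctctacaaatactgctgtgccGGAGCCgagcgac

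In Id2, GGCGCC lay 231 bases before the RefSeq start and GGAGCC 88 bases before it, within the exon left out. In Id4 they lay 148 and 13 bases before the start. The Id3 window held GGAGCC at 187 bases and no GGCGCC, while that of Bmpr2 held GGCGCC at 105 bases and lacked GGAGCC. Of the rest, GGCGCC was also present before Bmpr1a and 1 of the 3 starts of Smad5, GGAGCC before 2 of the 3 starts of Bmpr1b and another start of Smad5, and neither before Smad1. GGCGCC occurred in 9.59% of 32851 promoter windows of the same length, with chromosome 18 left out. Among the 9178 windows with a GC content of at least 60%, it occurred in 26.1%. GGAGCC occurred in 26% of all and 46.5% of the GC-rich windows. The Id2 and Id4 windows had GC contents of 62.8% and 75.6%. GTCTAGAC, in 0.167% of all windows, was found before none of the 8 genes. The windows of Id2, Id3, Bmpr2, Bmpr1a and Bmpr1b lie inside the annotated gene, as does the Smad5 window with GGAGCC. The Smad1 window and the Smad5 window with GGCGCC reach partly into it. A match does not show that a Smad was bound there.

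Total counts ran from 1775152 in WT replicate 2 to 5917505 in knockout replicate 1. The 45S pre-ribosomal RNA row took 41.9% of counts in WT replicate 1 (exact 95% binomial interval 41.8 to 41.9) and 39.8% in WT replicate 2 (39.7 to 39.9), against 14.6 to 19.6% in the other 4 libraries. Such intervals cover counting error only. Pml itself had 36, 35 and 44 WT reads against 14, 23 and 5 knockout reads. In CPM (read count divided by the scaled library size) that is 10.7, 28.0 and 9.99 against 2.11, 3.79 and 0.746. The log2 fold change was -2.81 (SE 0.661, edgeR unadjusted p 0.00165, adjusted p 0.197). A 3′ tag outside the deleted part would not report on the deletion. All 14 neural stem cell markers had reads in at least 1 library, though Msi1 had at most 5. That list summed to 5787 to 7565 CPM in WT and 6918 to 8508 in the knockout. A list of 20 hepatocyte genes summed to 603, 876 and 184 CPM in WT replicates 1, 2 and 3 and to 80.8 to 117 in the knockout. All had reads in at least 1 library, Afp only in WT replicate 2 with 3 reads. A list of 9 choroid plexus and dorsal midline markers, with Kl, Folr1, Lmx1a and Wnt3a at 0 throughout, summed to 161 CPM in WT replicate 2 and to 20.0 to 35.4 in the other 5 libraries. Ttr alone carried that difference, with 167 reads in WT replicate 2 and 13 to 62 in the other 5 libraries. In WT replicate 2, Otx2 had 32 reads, Rspo3 and Msx1 had 1 each and Clic6 had 0. A list of 10 microglial markers, Itgam at 0 throughout, summed to 34.4 CPM in WT replicate 2 and to at most 4.99 in the other 5 libraries. Of 8 endothelial markers, Cdh5, Tek, Cldn5 and Emcn had no reads, and the list summed to 4.54 to 12.5 CPM in WT and 10.9 to 16.3 in the knockout. Of 10 erythroid markers 7 had no reads, all 6 globins among them. Ribosomal RNA, reads of the hepatocyte, choroid plexus and microglial lists, and depth differed among libraries. Their part in the differences below was not tested, apart from the fits that leave libraries out. In these bulk samples, fewer cells of a type and less RNA per cell cannot be told apart.

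No member passed a Benjamini-Hochberg adjusted p under 0.05 in edgeR's quasi-likelihood test of knockout against WT, where 0.00884% of the 11317 tested genes did. It was also 0 of 10 by DESeq2, which called 0.928% of genes higher and 1.97% lower, and by edgeR's exact test, which called 1.31% and 1.86%. At an unadjusted p under 0.05, 4 of the 10 were higher in the knockout (Bmpr1b, Bmpr2, Id1 and Id3), beside 6.7% of all genes, and 0 were lower, beside 9.19%. That count of 4 changed with the libraries kept, and so did the share of all genes. It was 0 without knockout replicate 2 (2.44% of genes), 1 without knockout replicate 3 (3.18%), and 3 without knockout replicate 1 (5.05%). Leaving out WT replicate 1 gave 1 (4.72%), WT replicate 2 gave 4 (8.63%) and WT replicate 3 gave 3 (15.4%). It was 2 with trends in transcript length and GC content removed (6.14%) and 6 by voom with quality weights (14.6%). In that last fit 3 members passed the adjusted threshold, all higher, beside 4.26% of genes higher and 6.72% lower. The log2 fold change was above 0 for 9 members, beside 49.7% of all genes. Id2 was the exception, and its sign turned with quality weights, when WT replicate 2 was left out, and when WT replicates 1 and 2 both were. Scaling by library totals moved the median of all genes to 0.43 and Id2 to 0.28, still under that median. Without WT replicate 2, 10 members were above 0, beside 50.8% of genes, and 0 passed, beside 0.00856%. Without WT replicates 1 and 2 it was 9 members, beside 52.5%. The median log2 fold change of the members was 0.42, against -0.01 for all tested genes. Groups did not overlap for 2 members, Bmpr2 and Smad1, beside 12.3% of genes that were apart in that direction.

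**Figure D1:**
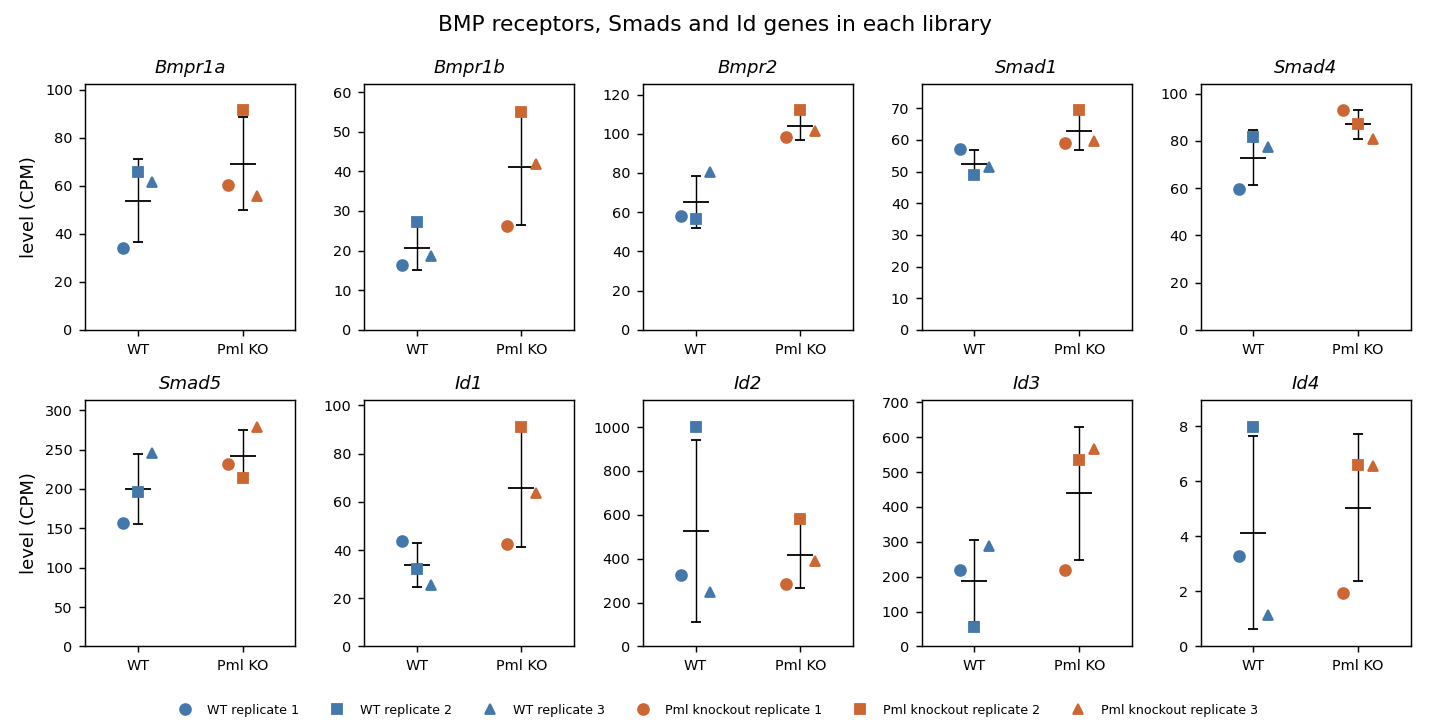
Level of each member in CPM (read count divided by the scaled library size) in 3 WT and 3 Pml knockout libraries. Points are libraries, bars are mean ± SD, and each axis starts at 0. Bmpr2 and Smad1 are the 2 members whose groups do not overlap, and Id2 and Id4 are highest in WT replicate 2.

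Bmpr2, the type II receptor shared by most BMP ligands (ENSMUSG00000067336.6, chromosome 1, 59763400 to 59879014, plus strand, GRCm38), stood at 58.0, 56.8 and 80.6 CPM in WT replicates 1, 2 and 3. It stood at 98.4, 112 and 101 CPM in knockout replicates 1, 2 and 3. Every knockout library lay above every WT library, and the knockout values spanned only 1.14-fold. Means were 65.1 ± 13.4 and 104 ± 7.22 CPM (SD, n = 3 each), which is 0.67 higher on the log2 scale (SE 0.259, edgeR unadjusted p 0.0269, adjusted p 0.261). The value depended on which WT libraries were kept. Without WT replicate 3 it was 0.87, with an edgeR adjusted p of 0.0468 in a fit that called 5.01% of genes higher and 7.97% lower. Against WT replicate 3 alone it was 0.36. Removing the length and GC trends left 0.24, and Bmpr2 has the longest annotated transcript of the 10 genes, at 12899 bases.

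Bmpr1b, a type I receptor of neural progenitors and cartilage (ENSMUSG00000052430.15, chromosome 3, 141837136 to 142169425, minus strand), stood at 16.4, 27.2 and 18.6 CPM in the WT libraries. The knockout libraries gave 26.2, 55.1 and 41.8 CPM. Knockout replicates 2 and 3 lay above all WT libraries, while knockout replicate 1 lay just under WT replicate 2. Means were 20.7 ± 5.70 and 41.0 ± 14.5 CPM (SD, n = 3 each). Its log2 fold change was 1.01 (SE 0.365), with an edgeR unadjusted p of 0.0195 and an adjusted p of 0.242. With 1 library left out it ranged from 0.74, without knockout replicate 2, to 1.26, without knockout replicate 1. Once those trends were removed the estimate was 0.68.

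Bmpr1a, the broadly expressed type I receptor (ENSMUSG00000021796.15, chromosome 14, 34410734 to 34503341, minus strand), stood at 34.2, 65.6 and 61.7 CPM in WT and at 60.5, 91.5 and 55.6 CPM in the knockout. WT replicate 1 was low and knockout replicate 2 high. In the other 4 libraries, both WT values lay above both knockout values, opposite to the direction of the estimate. The difference was 0.37 on the log2 scale (SE 0.333, edgeR adjusted p 0.601). It was 0.12 without knockout replicate 2 and 0.0048 once both trends were removed. The ratio of Bmpr1b to Bmpr1a reads, which needs no scaling between libraries, was 0.478, 0.415 and 0.302 in WT and 0.433, 0.602 and 0.751 in the knockout. The exact two-sided permutation p for its log2 was 0.20, where 3 libraries against 3 cannot go below 0.10, and 0.60 after adjustment over the 6 ratios computed.

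Smad1 and Smad5 are the Smads that BMP type I receptors phosphorylate, and Smad4 is the partner they share with the transforming growth factor beta branch. Smad1 (ENSMUSG00000031681.16, chromosome 8, 79338395 to 79399518, minus strand) stood at 57.2, 48.8 and 51.3 CPM in WT and 59.1, 69.4 and 59.7 CPM in the knockout. The groups did not overlap, but the highest WT and the lowest knockout library lay within 2 CPM of each other. Smad5 (ENSMUSG00000021540.16, chromosome 13, 56703010 to 56742377, plus strand) stood at 157, 197 and 246 CPM in WT and 232, 215 and 279 CPM in the knockout. Smad4 stood at 59.5, 81.5 and 77.4 CPM in WT and 93.0, 87.1 and 80.9 CPM in the knockout. For both, WT replicate 1 was the lowest library and 1 of the other WT values reached into the knockout range. The log2 fold changes were 0.26 (SE 0.252) for Smad1, 0.28 (SE 0.267) for Smad5 and 0.26 (SE 0.253) for Smad4, with edgeR adjusted p-values of 0.632, 0.627 and 0.630. All 3 estimates were about as large as their SE. Smad5 was at -0.03 against WT replicate 3 alone.

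Id2, Id3 and Id4 were the members that varied most among the WT libraries. WT values differed 1.71-fold for Id1, 4.05-fold for Id2, 5.05-fold for Id3 and 7.04-fold for Id4 between the highest and the lowest library, while the receptors and Smads differed between 1.17 and 1.92-fold. Among the knockout libraries the 4 Id genes differed between 2.05 and 3.37-fold and Bmpr1b 2.10-fold, while the other members stayed within 1.65-fold.

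Id1 (ENSMUSG00000042745.9, chromosome 2, 152736251 to 152737410, plus strand), a target that BMP induces directly, stood at 43.8, 32.0 and 25.7 CPM in WT and at 42.4, 91.2 and 63.7 CPM in the knockout. Knockout replicates 2 and 3 lay above all WT libraries, and knockout replicate 1 lay just under WT replicate 1. Means were 33.8 ± 9.19 and 65.8 ± 24.5 CPM (SD, n = 3 each). On the log2 scale the knockout was higher by 0.96 (SE 0.354), with an edgeR unadjusted p of 0.0217 and an adjusted p of 0.246. It stayed between 0.66 and 1.21 with 1 library left out, and was 1.35 against WT replicate 3 alone. Removing the length and GC trends gave 1.33.

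Id3 (ENSMUSG00000007872.3, chromosome 4, 136143497 to 136145755, plus strand), often induced together with Id1, stood at 219, 56.8 and 287 CPM in WT and at 219, 534 and 565 CPM in the knockout. WT replicate 2, with 71 reads, was far under the others, and knockout replicate 1 was level with WT replicate 1. The WT mean was 187 ± 118 CPM and the knockout mean 439 ± 191 (SD, n = 3 each). The estimate of 1.22 on the log2 scale (SE 0.540) had an edgeR unadjusted p of 0.0472 and an adjusted p of 0.309. Leaving out WT replicate 2 lowered it to 0.80, and against WT replicate 3 alone it was 0.61. Leaving out WT replicate 3 raised it to 1.66, and removing the length and GC trends gave 1.47.

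Id2 (ENSMUSG00000020644.9, chromosome 12, 25093799 to 25097140, minus strand), an Id gene with wide expression in progenitors and young neurons, stood at 327, 1002 and 247 CPM in WT and at 283, 581 and 389 CPM in the knockout. Here WT replicate 2 was the highest of all libraries, although it held the fewest counts. The WT mean of 525 ± 415 CPM and the knockout mean of 418 ± 151 (SD, n = 3 each) differed by less than the spread in WT. Its log2 fold change was -0.33 (SE 0.503), with an edgeR adjusted p of 0.768. It turned to 0.55 without WT replicate 2 and to 0.75 against WT replicate 3 alone, with edgeR adjusted p-values of 0.382 and 0.283. In WT replicate 2, a list of 7 astrocyte markers summed to 1751 CPM, beside 1005 and 600 in WT replicates 1 and 3 and 935 to 1254 in the knockout. Aldoc made up 1141 of the 1751 CPM. Of the 7 markers, Gfap, S100b and Aldoc were highest in WT replicate 2, Aldh1l1 in WT replicate 1, and Aqp4, Gja1 and Slc1a2 in knockout replicate 2. The part of astrocyte content in the Id2 values was not tested.

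Id4 (ENSMUSG00000021379.2, chromosome 13, 48261228 to 48266026, plus strand), which acts on progenitor division in the forebrain, was counted 11, 10 and 5 times in WT and 13, 40 and 44 times in the knockout. That is 3.27, 7.99 and 1.14 CPM against 1.96, 6.60 and 6.56 CPM, so both groups spanned nearly the same range. For the 5 reads of WT replicate 3, the exact 95% Poisson interval is 1.62 to 11.7 reads. The log2 fold change of 0.47 (SE 0.767) had an edgeR adjusted p of 0.777. It was -0.03 without WT replicate 3 and 2.12 against that library alone. Id4 overlaps 2 genes annotated on the other strand, and without a stated strand setting their reads cannot be told apart. The same holds for Bmpr1a and Smad4, each of which overlaps a gene annotated on the other strand. Bmpr2 and Smad5 overlap genes annotated on their own strand, whose reads a strand setting would not separate. Bmpr1b, Smad1, Id1, Id2 and Id3 overlap no other annotated gene.

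**Figure D2:**
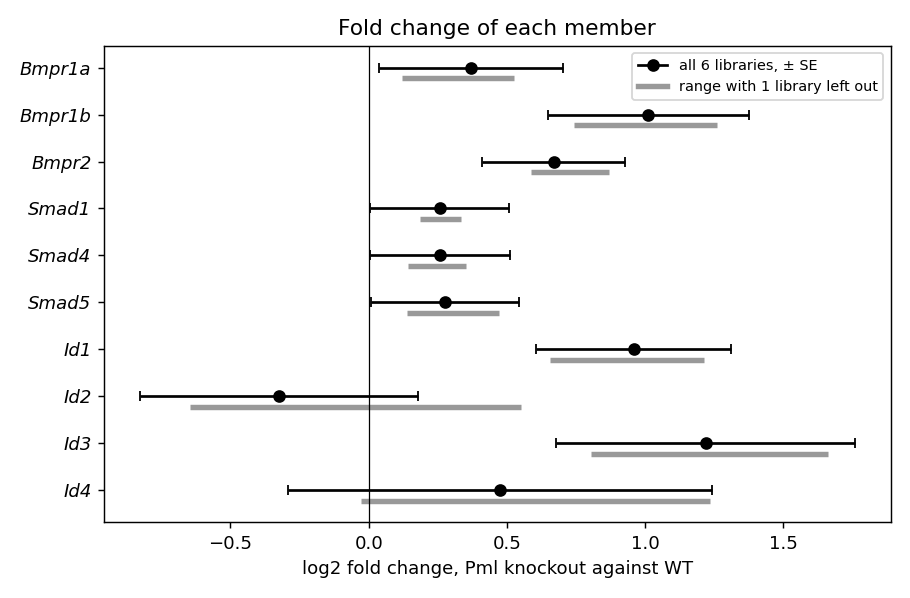
Log2 fold change of Pml knockout against WT for each member. Points with bars are edgeR estimates ± SE from all 6 libraries, and grey bars span the 6 fits that leave out 1 library each. The grey bars of Id2 and Id4 cross 0, reaching from -0.65 to 0.55 and from -0.03 to 1.24.

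Ratios between Id genes within a library need no scaling between libraries. Id3 reads per Id2 read numbered 0.669, 0.0567 and 1.16 in WT replicates 1, 2 and 3, and 0.772, 0.918 and 1.45 in the knockout. WT replicate 2 alone set the low end, and the other 5 libraries overlapped between genotypes (exact two-sided permutation p 0.40). Id1 reads per Id2 read numbered 0.134, 0.0319 and 0.104 in WT and 0.150, 0.157 and 0.164 in the knockout. Every knockout library lay above every WT library, a mean log2 difference of 1.04, with an exact two-sided permutation p of 0.10, the smallest that 3 against 3 allows, and 0.60 adjusted over 6 ratios. On the log2 scale the Id1 to Id2 ratio had an SD of 0.065 in the knockout and 1.10 in WT (n = 3 each).

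By their CPM, Id2 and Id4 followed the same order over the 6 libraries, from WT replicate 2 at the top through knockout replicates 2 and 3, WT replicate 1 and knockout replicate 1 to WT replicate 3. This order was shared by 0.433% of tested genes. For Id4 it was not resolved by the reads: knockout replicates 2 and 3 stood at 6.60 and 6.56 CPM, and the 10 reads of WT replicate 2 have an exact 95% Poisson interval of 4.8 to 18.4 reads. Bmp4, a BMP ligand, stood at 17.9, 52.0 and 2.50 CPM in WT and at 10.1, 78.0 and 28.2 CPM in the knockout. It differed from the order of Id2 only in that knockout replicate 2 stood above WT replicate 2. WT replicate 3 was thus the lowest library and knockout replicate 1 the next lowest for all 3 genes. Gfap, the astrocyte intermediate filament, was also highest in WT replicate 2 (103 CPM) and lowest in WT replicate 3, with 1 read, whereas Aqp4 and Gja1, also astrocyte markers, were highest in knockout replicate 2. Id1 and Id3 did not share this order, and Id3 was lowest where Id2 was highest. Knockout replicate 1 was the lowest knockout library for 7 of the 10 members, beside 36.3% of tested genes. Bmp4 and Gfap were singled out after their values were seen, and these orders are descriptions of 6 libraries.

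**Figure D3:**
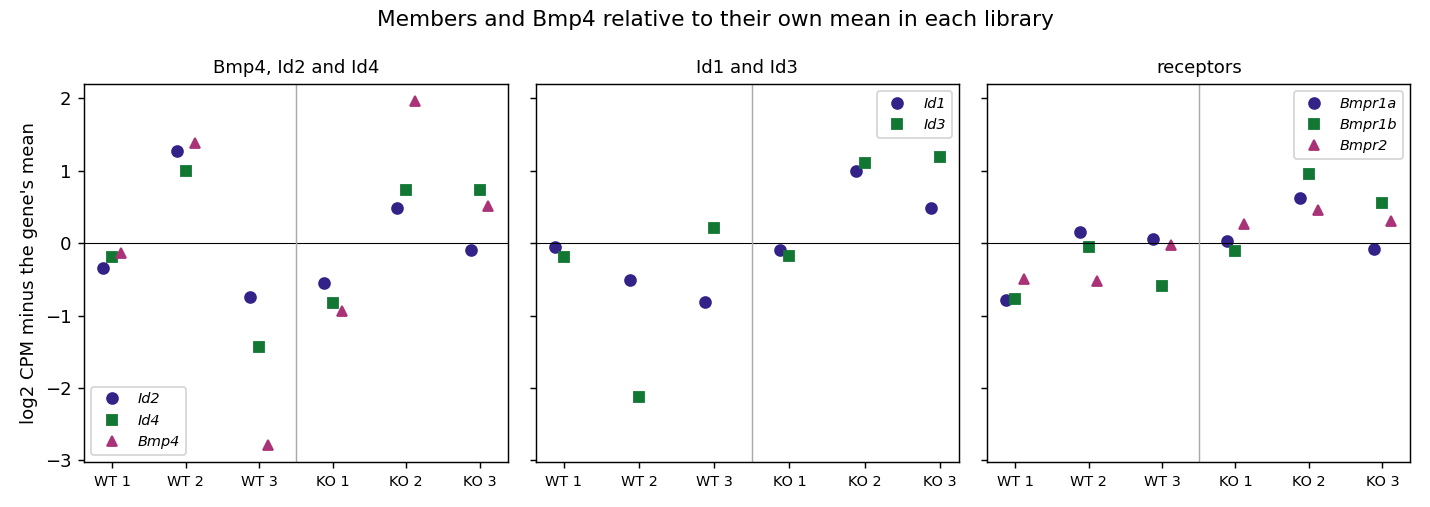
Log2 CPM of Id2, Id4 and Bmp4 (left), Id1 and Id3 (middle) and the 3 receptors (right), each minus the gene's mean over the 6 libraries, with replicates 1 to 3 of WT and of Pml knockout (KO) along the axis. Id2, Id4 and Bmp4 are high in WT replicate 2 and low in WT replicate 3, where Bmp4 reaches -2.78, while Id3 is at -2.12 in WT replicate 2.

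Genes whose profile over the 6 libraries was nearest to a member were found by the root mean square distance of centred log2 CPM, among 6136 genes with a mean of at least 20 CPM. Nearest to Bmpr1b were Acadsb, Ppm1k and Epb4.1l2, at distances of 0.128, 0.151 and 0.176, where the root mean square of Bmpr1b about its own mean was 0.603. Nearest to Id1 were Sh3bp4, Tnrc6c and Glud1, at 0.131, 0.136 and 0.149 against 0.600. Nearest to Bmpr2 were Syt11, Abl1 and Ptprf, at 0.0367, 0.0585 and 0.0604 against 0.385. Neither a BMP ligand nor another member was among them. Of the ligands only Bmp4 and Bmp7 reached a mean of 20 CPM, and Id4 did not, so this absence says little.

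Of the other genes of the pathway, 63 were tested and 0 passed the adjusted threshold by edgeR, with 5 higher and 1 lower at an unadjusted p under 0.05, beside 6.7% and 9.19% of all genes. DESeq2 and edgeR's exact test each called Stub1 lower and Hey2 higher among them. Of all genes, DESeq2 called 0.928% higher and 1.97% lower, and the exact test 1.31% and 1.86%. Quality weights called both and also Crim1, Skil, Trim33 and Tcf4 higher, beside 4.26% of all genes higher and 6.72% lower. Without WT replicate 3, Stub1 and Gdf11 were called lower and Crim1, Trim33, Hey2 and Tcf4 higher, beside 7.97% and 5.01% of all genes. Hey2, with 1, 0 and 0 WT reads, passed the filter on minimum counts only through the knockout libraries, so its calls are no independent support. Scaling by library totals moves every list up with the median of all genes, which becomes 0.43.

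Of 15 genes for BMP ligands and their near relatives, 3 were tested. Among the other 12, Bmp2 had the highest count, 22 reads in WT replicate 2, and 6 had no read in any library. Bmp7 stood at 33.6, 38.4 and 32.7 CPM in WT and at 30.4, 14.8 and 24.6 CPM in the knockout, with every knockout library under every WT library (log2 fold change -0.58, SE 0.333, edgeR adjusted p 0.415). Groups were apart in that direction for 11.3% of all genes. Gdf11, a ligand of the activin branch, had a log2 fold change of -1.12 (SE 0.563) and Bmp4 of 0.79 (SE 0.908), with edgeR adjusted p-values of 0.360 and 0.684.

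Among 6 other tested receptors and co-receptors of the family, 5 stood higher and 1 lower (median 0.42 on the log2 scale). At an edgeR unadjusted p under 0.05, 2 were higher and 0 lower, beside 6.7% and 9.19% of all genes. Neo1, the receptor neogenin, which binds repulsive guidance molecules that act as BMP co-receptors, stood at 58.9, 24.0 and 43.6 CPM in WT and 75.8, 116 and 74.9 CPM in the knockout. Its groups were apart, at 1.06 on the log2 scale (SE 0.355, edgeR adjusted p 0.238). Acvr1, a further type I receptor that signals through Smad1 and Smad5, gave 14, 0 and 34 WT reads against 71, 79 and 102 knockout reads (edgeR adjusted p 0.303). WT replicate 2, where it had no read, is the shallowest library. The estimates for Tgfbr1, a type I receptor of transforming growth factor beta, and the BMP co-receptor Rgma were 0.39 and 0.34, with overlapping groups.

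Secreted and membrane-bound modulators of BMP signalling included 12 tested genes, of which 9 were higher and 3 lower (median 0.65). By edgeR 2 were higher and 0 lower at an unadjusted p under 0.05, beside 6.7% and 9.19% of all genes. Crim1, a transmembrane protein that binds BMPs, stood at 7.14, 7.99 and 19.1 CPM in WT and at 23.5, 27.9 and 27.7 CPM in the knockout (log2 fold change 1.16, SE 0.414, edgeR adjusted p 0.241). Fstl1, a secreted glycoprotein that binds BMP4, stood at 31.3, 28.0 and 34.7 CPM in WT and at 44.4, 48.0 and 58.8 CPM in the knockout (0.68, SE 0.275, adjusted p 0.277). In both the groups were apart. Chrdl1 and Twsg1, secreted proteins that bind BMPs, stood at 0.85 and 0.63 on the log2 scale, with edgeR adjusted p-values of 0.413 and 0.476. The antagonist Nog gave 2, 16 and 7 WT reads against 28, 62 and 43 knockout reads, and its levels overlapped once scaled. Against WT replicate 3 alone 8 of the 12 were higher, with a median of 0.22.

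Of 26 tested genes for other Smads and their regulators, 16 stood higher and 10 lower, with a median of 0.05. With library totals the median was 0.50. Stub1, the ubiquitin ligase CHIP, which can target Smads for degradation along with many other proteins, stood at 147, 144 and 73.1 CPM in WT and at 49.2, 46.2 and 50.1 CPM in the knockout. Its log2 fold change was -1.32 (SE 0.312, edgeR unadjusted p 0.00174, adjusted p 0.197). WT replicates 1 and 2, where the 45S pre-ribosomal RNA share was high, were its highest libraries. The co-repressors Tgif1 and Skil and the Smad4 regulator Trim33 stood at 1.29, 0.71 and 0.85 on the log2 scale, with edgeR adjusted p-values of 0.334, 0.443 and 0.376. Smad2 and Smad3, the Smads of the activin and transforming growth factor beta branch, had log2 fold changes of -0.23 (SE 0.319) and -0.18 (SE 0.389). The inhibitory Smad6 had at most 2 reads in a library. Smad7, also inhibitory, gave 27, 8 and 3 WT reads against 30, 41 and 41 knockout reads, at 0.27 on the log2 scale (SE 0.726).

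Of 11 tested BMP-responsive genes other than Id genes, 6 stood higher and 5 lower, with a median of 0.18. With library totals the median was 0.69. By edgeR 0 had an unadjusted p under 0.05, beside 6.7% of all genes higher and 9.19% lower. Smad7, Bambi and Nog, counted here, were also counted in the lists above. Hes1, a transcriptional repressor also driven by Notch, stood at 77.7, 16.0 and 77.9 CPM in WT and at 107, 97.5 and 119 CPM in the knockout (log2 fold change 0.89, SE 0.464, edgeR adjusted p 0.375). Gfap stood at -1.64 (SE 1.25) and S100b, another astrocyte gene, at -0.53, and WT replicate 2 was far above the rest for both. Msx2, Dlx5, Gata2 and Tlx2 had no reads in any library. The direction of this list turned with single libraries: without WT replicate 3, 4 were higher and 7 lower with a median of -0.33, and without knockout replicate 3, 5 were higher and 6 lower with -0.04. Against WT replicate 3 alone 8 of the 11 were higher, with a median of 0.95.

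A list of E proteins and helix-loop-helix factors, with Hes and Hey repressors among them, comprised 11 tested genes. Of these, 7 stood higher and 4 lower, with a median of 0.18. With library totals the median was 0.60. Hes1, Hes5 and Hey1 were also counted in the BMP-responsive list. Tcf4, an E protein, stood at 589, 696 and 1059 CPM in WT and at 1194, 1275 and 1109 CPM in the knockout, with groups apart (log2 fold change 0.61, SE 0.301, edgeR adjusted p 0.349). Tcf3, another E protein, was apart in the other direction, at 105, 91.1 and 89.2 CPM in WT and 77.0, 73.4 and 69.1 CPM in the knockout (-0.38, SE 0.240, adjusted p 0.454). Tcf12, a further E protein, stood at 0.30. The proneural factor Neurog1 had no read in any library. Hey2, a repressor induced by Notch, was named here after its values were seen. It was the 1 gene with an edgeR unadjusted p under 0.05, beside 6.7% of all genes higher and 9.19% lower. It had 1, 0 and 0 WT reads against 22, 30 and 25 knockout reads, and passed the count filter only through the knockout libraries.

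**Figure D4:**
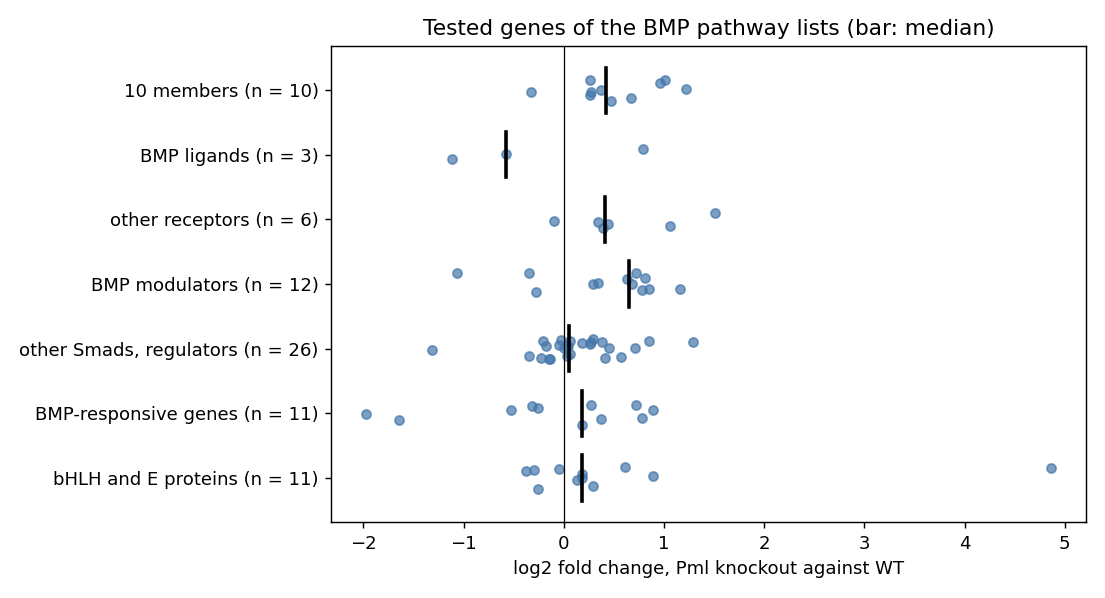
Log2 fold change of Pml knockout against WT for the tested genes of each group, with the median as a bar. Each gene has 1 point in every group that holds it (scattered vertically for legibility). The 10 members have a median of 0.42 and the modulators one of 0.65, while the other Smads and regulators centre on 0.05. The point beyond 4 is Hey2, a fitted value that rests on 1 read in WT.

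In the authors' deposited table, 0 members had an adjusted p under 0.05, where 1.13% of the genes with a p were called higher and 1.81% lower. At an unadjusted p under 0.05 it has 4 members, all higher, beside 8.08% of genes higher and 9.52% lower. There the log2 fold changes were 1.24 for Id3, 1.04 for Bmpr1b, 0.99 for Id1 and 0.69 for Bmpr2, and -0.29 for Id2.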

How the data were processed

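The tools named per the submitters' processing notes are FastQC, HISAT2, HTSeq and edgeR, with the mm10 build. Of versions, annotation and strand setting, nothing is given in the sources used here. Per the labels' protocols, libraries came from a 3′ tag kit (QuantSeq forward), which places reads near transcript ends, so levels are compared between libraries and not between genes. Values used were the deposited whole-number counts, which are not normalized. The table also holds the authors' log2 fold changes and p-values, per the file headers, which were used only where named as theirs. A further 6 per-sample columns of normalized values were not used.

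The analysis ran under R 4.3.3, using edgeR 4.0.16, limma 3.58.1 and DESeq2 1.42.0. Genes were filtered with edgeR's defaults (count minimum 10, total 15), which left 11317 and all 10 members. At the filter's level of 2.13 CPM of the library total, 9 members passed in all 6 libraries and Id4 in 2 WT and 3 knockout libraries. CPM are scaled by TMM (trimmed mean of M values) factors. The test was a robust quasi-likelihood F test of knockout against WT without covariates, and an SE is the fold change divided by the square root of F. On simulated data for this comparison (11114 genes tested), 88% of 4-fold and 12% of 2-fold increases were called. For decreases it was 68% and 14%, and 10 unchanged genes were called. Simulated counts were drawn gene by gene around 1 mean each, without the shared library differences seen here. These shares may therefore not hold for the data. Library pairs within a group differed by more than counting noise (chi-square per degree of freedom of at least 9.03).

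The members and lists were chosen with earlier results of these data known, and the 6 ratios and the library orders after seeing the values. For each pathway list the rule was to name up to 4 genes with the smallest p and at least 5 CPM. Genes named beyond it are Bmp2, Hey2, Hes5, Hey1, Bambi, Smad2, Smad3, Smad6, Smad7, Neurog1 and those said to have no reads. Coordinates are from GENCODE M21 (GRCm38, the assembly mm10 names).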

Additional observations from a re-analysis of the deposited data

How the results depend on the processing

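The 20 alternatives gave 200 fold changes of members: 190 kept their sign and their side of the threshold, 6 changed sign and 4 came to pass. Signs changed for Smad5 (-0.028 with WT replicates 1 and 2 left out together), for Id4 (-0.028 without WT replicate 3) and for Id2 (0.28 with library totals, 0.13 by voom with quality weights, 0.55 without WT replicate 2, 0.75 with WT replicates 1 and 2 left out together). With single libraries left out, the highest Id4 value was 1.24 and the lowest Id2 value -0.65. Library totals moved the median of all genes to 0.43 and that of the members to 0.92, so 0.49 relative to it, and the split at an unadjusted p under 0.05 from 758 higher and 1040 lower to 1611 and 211. The members' median was 0.72 by voom with quality weights, and 0.31 to 0.59 with single libraries left out; with length and GC trends removed, an alternative chosen after seeing the data, it was 0.25. Members past the threshold numbered 3 by voom with quality weights (Bmpr1b, Bmpr2 and Id3, beside 4.26% of all genes higher and 6.72% lower), which weighted WT replicate 1 at 1.62 and WT replicates 2 and 3 at 0.392 and 0.353, and 0 to 1 with single libraries left out, the 1 being Bmpr2 without WT replicate 3.

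All genes past the threshold numbered 1 by the edgeR quasi-likelihood test, 328 by DESeq2, 359 by edgeR's exact test, 1242 by voom with quality weights, 3 with no count filter and 142 with WT replicates 1 and 2 left out together, where the lone WT library is assumed to vary like the others. They numbered 0 by limma voom, without the Rn45s row, with library totals, with DESeq2 size factors and with a minimum of 5 CPM, and 0 to 1526 with single libraries left out, 1526 being without WT replicate 3. The replicate block called 2 genes and no member. The labels do not say what a replicate number marks, and deviations of same-numbered libraries correlated at -0.003, 0.067 and 0.188, so the numbers were not taken to pair them. Reads of 5 to 44 per library limit what can be said of Id4.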

Other observations

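The share of Id1 in the summed reads of Id1 and Id2 differed little among the knockout libraries, at 13.0% (exact 95% binomial interval 11.6 to 14.5), 13.6% (12.5 to 14.7) and 14.1% (12.9 to 15.4). All 3 intervals overlap, although the Id1 level itself differed 2.15-fold among these libraries. In the WT libraries the share was 11.8% (10.1 to 13.7), 3.09% (2.22 to 4.19) and 9.40% (7.81 to 11.2), and the interval of WT replicate 2 lies apart from those of the other 5 libraries. The intervals cover counting error only.

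Apoe, the lipid carrier of astrocytes, was the gene nearest in profile to Id4 (root mean square distance 0.264, against 0.899 for Id4 about its own mean). Next to Id4 were Gstm1 and Itga7, at 0.305 and 0.316. Apoe had the same order of libraries as Id2 and Id4, which 0.433% of tested genes share. The Id4 profile rests on 5 to 44 reads per library. The gene nearest to Id2 was Tmeff2, at 0.183 against 0.688, followed by Pea15a and Gabbr1 at 0.183 and 0.213. Naming neighbours of Id2 and Id4 goes beyond the rule, which covered the members with the smallest unadjusted p.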
